A study of Homo sapiens with 8 samples.

Results

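This account covers 9 genes that encode histone acetyltransferases: EP300, CREBBP, KAT2A, KAT2B, KAT5, KAT6A, KAT6B, KAT7 and KAT8. They were named as a list, and every deposited region that overlapped the RefSeq GRCh38 span of a gene, or 3000 bp on either side of it, was taken. That gave 15 of 35154 listed RBBP4 regions, at 8 of the 9 genes, and 3 of 20496 listed P300 regions, at 2 of them. KAT6B had no listed region for either antibody.

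The cells were NCI-H69, a long-established cell line from a human small cell lung cancer. In one arm they received small interfering RNA (siRNA) against CSNK2B, the regulatory beta subunit of casein kinase 2, and in the other a non-targeting control siRNA. Chromatin was taken 48 h later, bound DNA was recovered with an antibody against RBBP4 or P300, and the libraries were read as 150 bp pairs. Each antibody had 1 immunoprecipitated library per arm and therefore no replicates. Knockdown and control could not be tested against each other on that footing. The arms were read from column names, so every direction below depends on that reading. The labels also give 1 input library for each of these, and the inputs were not analysed here. The antibodies carried separate batch labels, so a difference between antibodies cannot be told apart from batch. Of 5 neuroendocrine marker genes (INSM1, CHGA, SYP, NCAM1 and DLL3), only NCAM1 had listed regions. Occupancy tables do not measure expression, so neither the cell type label nor the knockdown itself could be checked on them. CSNK2B had no listed region.

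Histone acetyltransferases transfer acetyl groups to lysines of histone tails, a mark of open and active chromatin that bromodomain proteins read and histone deacetylases remove. EP300 and its paralogue CREBBP (CBP) are broad coactivators that acetylate histone H3 at enhancers and promoters, and loss-of-function mutations of both recur in small cell lung cancer. KAT2A (GCN5) and KAT2B (PCAF) form the GNAT pair that works within the SAGA and ATAC complexes. KAT5 (TIP60), KAT6A (MOZ), KAT6B (MORF), KAT7 (HBO1) and KAT8 (MOF) are the MYST family, and all work within multi-subunit complexes. RBBP4 is a histone-binding subunit of deacetylase, Polycomb and chromatin assembly complexes, and P300 is the protein product of EP300, so the P300 antibody measured where the product of a member gene sat.

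Promoter letters are shown first, because the RBBP4 differences with the smallest p-values among the genes that have a window lay on the promoters of KAT5 and KAT7. RefSeq promoter windows (GRCh38.p14) were matched for 7 of the 9 genes, all but KAT6A and KAT8. Each line gives the 250 bases before a gene start, 5′ to 3′ on the gene's strand. Capitals mark any match, on either strand, to GGGCGG (GC box), CCGGAA (ETS core), CACGTG (E-box), CCAAT (the NF-Y box), GCATGC (centre of the NRF1 motif), TGACG (one arm of the cyclic AMP response element) or ATGGCG (centre of the YY1 motif). Matches may overlap one another. The windows shown are those of the 4 genes whose RBBP4 region lay over or within 1000 bp of the window, and 1 of the 2 CREBBP windows beside that of its paralogue EP300. The listed RBBP4 regions covered all 250 bases shown for KAT5 and KAT7 and the first 37 of KAT2B. The EP300 region ended 201 bp before the bases shown, and the nearest CREBBP region lay 37337 bp away.
KAT5 (chr11:65712002-65712251, plus strand): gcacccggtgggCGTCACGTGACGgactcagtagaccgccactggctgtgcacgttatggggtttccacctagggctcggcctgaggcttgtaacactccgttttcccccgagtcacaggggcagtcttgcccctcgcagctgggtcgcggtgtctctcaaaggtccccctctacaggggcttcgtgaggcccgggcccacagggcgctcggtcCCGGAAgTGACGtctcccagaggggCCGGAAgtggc
KAT7 (chr17:49788431-49788680, plus strand): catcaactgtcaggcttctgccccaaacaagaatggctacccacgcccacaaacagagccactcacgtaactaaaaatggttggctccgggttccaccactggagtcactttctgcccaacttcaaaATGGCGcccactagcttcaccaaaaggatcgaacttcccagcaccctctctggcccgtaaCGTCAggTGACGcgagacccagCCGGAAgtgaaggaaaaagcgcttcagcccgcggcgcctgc
KAT2B (chr3:20040196-20040445, plus strand): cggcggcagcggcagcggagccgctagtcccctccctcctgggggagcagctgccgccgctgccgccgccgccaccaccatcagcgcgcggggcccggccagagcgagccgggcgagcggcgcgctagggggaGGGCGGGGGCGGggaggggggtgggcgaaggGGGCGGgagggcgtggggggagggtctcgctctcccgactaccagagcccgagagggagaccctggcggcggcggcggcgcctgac
EP300 (chr22:41092342-41092591, plus strand): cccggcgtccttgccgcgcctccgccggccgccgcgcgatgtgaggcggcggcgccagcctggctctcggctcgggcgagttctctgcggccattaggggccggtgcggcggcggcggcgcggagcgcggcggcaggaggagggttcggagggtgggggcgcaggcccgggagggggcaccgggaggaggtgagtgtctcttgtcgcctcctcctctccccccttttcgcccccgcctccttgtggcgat
CREBBP (chr16:3880714-3880963, minus strand): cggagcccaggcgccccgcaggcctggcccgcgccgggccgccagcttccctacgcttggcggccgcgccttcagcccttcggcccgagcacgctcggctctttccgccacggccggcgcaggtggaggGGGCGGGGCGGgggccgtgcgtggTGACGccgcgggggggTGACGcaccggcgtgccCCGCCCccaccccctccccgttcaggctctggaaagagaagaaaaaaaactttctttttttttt

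These promoters differed in their letters. KAT5 held 2 copies of CCGGAA, 1 of CACGTG and 3 of TGACG, and KAT7 held 1 of CCGGAA, 2 of TGACG and 1 of ATGGCG. KAT2B held 3 copies of GGGCGG, CREBBP held 3 of GGGCGG and 2 of TGACG, and EP300 held none of the 7 motifs. Among 22199 such stretches of protein-coding genes, 17.95% held CCGGAA, 24.2% TGACG, 7.37% CACGTG, 7.19% ATGGCG and 53.7% GGGCGG. The NF-Y box, found in none of these 5 stretches, was in 32.7%, and the NRF1 centre, also found in none, in 6.55%. The EP300 stretch had 35 CG dinucleotides, KAT2B 33 and CREBBP 31, against 19 for KAT5, 14 for KAT7 and a median of 16 over all stretches. Of the stretches not shown, that of KAT2A held 1 TGACG, the other of CREBBP 4 GGGCGG, and the 3 of KAT6B held 0, 10 and 1 GGGCGG, the last with 4 CCAAT as well. A match describes the letters and is not evidence of a bound factor.

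The RBBP4 comparison asked whether RBBP4 sat more or less densely at these genes once CSNK2B was knocked down. A region is termed called below where the authors' deposited table gives it an adjusted p under 0.05. A called region with higher RBBP4 density after knockdown lay at 6 of the 9 genes, namely EP300, KAT2A, KAT2B, KAT5, KAT6A and KAT7. Over all 20037 protein-coding genes the same criterion was met by 38.3%, and by 40.3% of the 14176 genes whose length lay within the range of the members (7587 to 207689 bp). A lower region passed at 0 of the 9 genes, where the share was 5.6% over all protein-coding genes and 4.64% in that length range. Among the called regions KAT5 had the largest ratio, followed by KAT6A, KAT7, KAT2A, EP300 and KAT2B, and the intervals of neighbours in this order overlapped.

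Reads were recovered from the deposited RPKM (reads scaled by region width and library total). The total behind the RPKM, 1207945 reads for RBBP4 knockdown and 833181 for RBBP4 control, was inferred from the scaling and not checked. Folds below are ratios of reads divided by these totals, each with an exact binomial interval (95%) for counting error alone. On the scale of the authors' log2 fold change, every RBBP4 ratio of knockdown to control is 1.49 times as large (0.58 in log2). This is a median shift applied alike to all regions. It is termed the whole-library scale below, although no library totals were available to check that name. The table lists only regions with an unadjusted p below 0.05, and 35151 of 35154 were higher in the arm whose peak gave the region its name. A listed difference is therefore favoured by the choice of regions, and a gene without a region was not shown to lack a difference.

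Of the P300 and CBP pair, only EP300 had a called region. It lay on chromosome 22 from 41091309 to 41092141, upstream of the EP300 start by 451 bp, and its counts were 30 reads after knockdown and 6 in the control. That is 3.45 times the control density (1.41 to 10.1), and the authors' deposited table gives an adjusted p of 0.00281. No region was listed inside EP300.

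CREBBP had 4 listed regions, none of them called (adjusted p between 0.089 and 0.121, the authors' deposited table). All lay inside the gene, at least 37336 bp from either end. The region with most reads, on chromosome 16 from 3838397 to 3839186, held 28 reads in the knockdown library and 12 in the control, a ratio of 1.61 (0.793 to 3.47). A pair of shallower regions had 11 reads against 2 and 8 against 1, and the remaining one had the opposite direction, with 2 reads after knockdown and 10 in the control. The difference between EP300 and CREBBP was not tested.

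**Figure D1:**
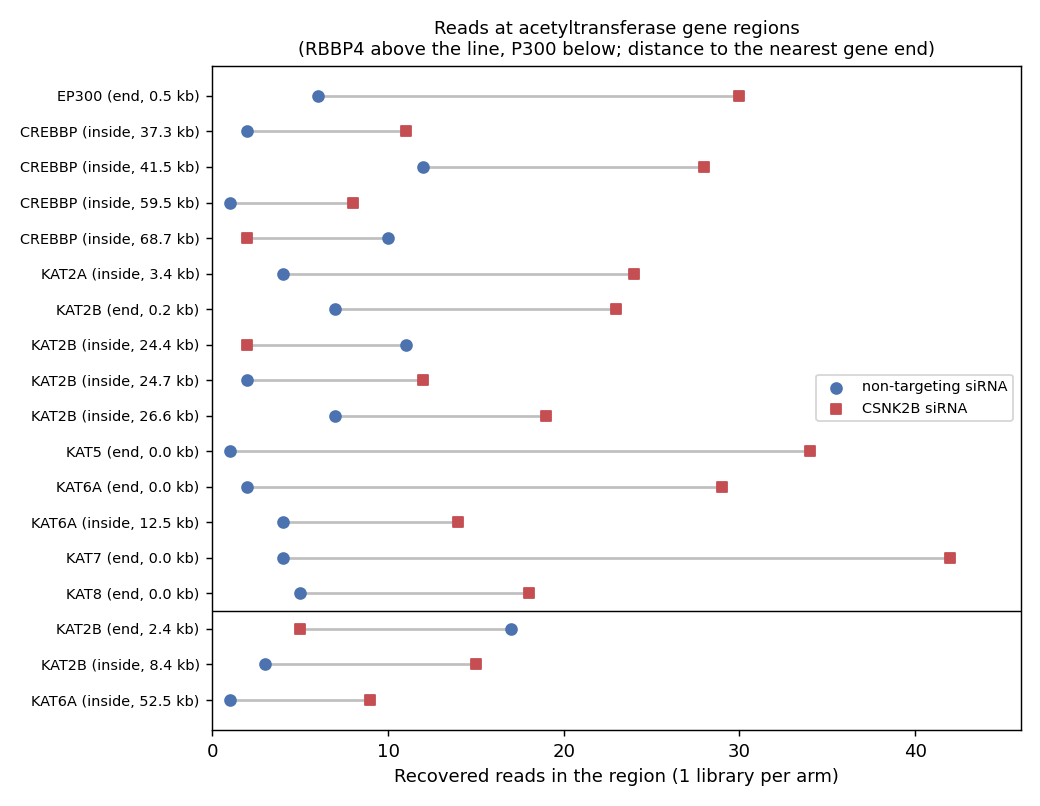
Recovered reads (x axis) in each of the 15 RBBP4 and 3 P300 regions at the acetyltransferase genes, with circles for control siRNA and squares for CSNK2B siRNA, 1 library each. Squares lie to the right in 13 RBBP4 regions and to the left in 2, and KAT7 (42 against 4) and KAT5 (34 against 1) show the widest gaps.

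The GNAT genes each had 1 called region. At KAT2A it lay within the gene, on chromosome 17 from 42117146 to 42117982, at 3385 bp from the start, with 24 reads after knockdown and 4 in the control. This is 4.14 times the control density (1.42 to 16.4), and the authors' deposited table gives an adjusted p of 0.00454. It was the single called region of the members that lay more than 3000 bp from a gene end.

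At KAT2B the called region lay on chromosome 3 from 20039414 to 20040232, upstream of the start by 214 bp and reaching 37 bp into the promoter window. Its counts were 23 after knockdown and 7 in the control, a ratio of 2.27, and the authors' deposited table gives an adjusted p of 0.0466. The interval (0.941 to 6.25) includes 1 on this scale. On the whole-library scale, on which regions were selected for listing, it runs from 1.40 to 9.33. With a dispersion of 0.04 in place of the 0.01 that the authors' p-values correspond to, the call was lost (adjusted p = 0.116, beta-binomial test on recovered reads). The other 5 called member regions kept theirs, as did 68.2% of all called higher RBBP4 regions. A further 3 regions inside KAT2B were not called. They had 12 reads after knockdown against 2 in the control, 19 against 7, and 2 against 11, so the gene carried both directions.

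The MYST genes held the 3 largest RBBP4 ratios. KAT5, the catalytic subunit of the NuA4/TIP60 complex that acts in DNA damage signalling, had a region on chromosome 11 from 65711919 to 65712322 that covered the whole promoter window. The knockdown library had 34 reads there and the control 1, or 23.5 times the density (3.93 to 953), and the authors' deposited table gives an adjusted p of 1.02e-06. The upper limit is wide because the control held a single read. With 3 reads standing for 0, 0.149% of all listed higher RBBP4 regions had a larger ratio. That floor lowers the ratio of regions with 0 control reads, so the share is a minimum. The authors' log2 fold change, for example, was 4.97 at KAT5 and 7.94 at a BRPF1 region with 30 reads against 0.

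KAT7, the enzyme of the HBO1 complex that acetylates histone H3 at promoters and origins of replication, had a region on chromosome 17 from 49788004 to 49788902, also over the whole window. The counts were 42 and 4, or 7.24 times the control density (2.63 to 27.8), and the authors' deposited table gives an adjusted p of 2.55e-06. KAT7 therefore had the most reads of any called member region, and KAT5 the lowest control count. The region overlapped the neighbouring gene FAM117A as well, so it cannot be given to KAT7 alone.

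KAT6A, which acetylates histone H3 and is a partner in leukaemia fusions, had a region at the higher-coordinate end of its span, on chromosome 8 from 42051950 to 42052821. The counts were 29 and 2, or 10.001 times the control density (2.53 to 86.5), and the authors' deposited table gives an adjusted p of 5.62e-05. The antisense gene KAT6A-AS1 overlapped it. A region inside KAT6A had 14 reads against 4 and was not called (adjusted p 0.121, the authors' deposited table).

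KAT8, the enzyme that acetylates histone H4 within the MSL and NSL complexes, had 1 region, at the lower-coordinate end of its span on chromosome 16 from 31117619 to 31117925. The counts were 18 and 5, a ratio of 2.48 (0.889 to 8.56), and it was not called (adjusted p 0.0668, the authors' deposited table). It overlapped BCKDK, a neighbouring gene. Thus KAT8 pointed the same way as the called MYST genes, and its interval included 1.

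**Figure D2:**
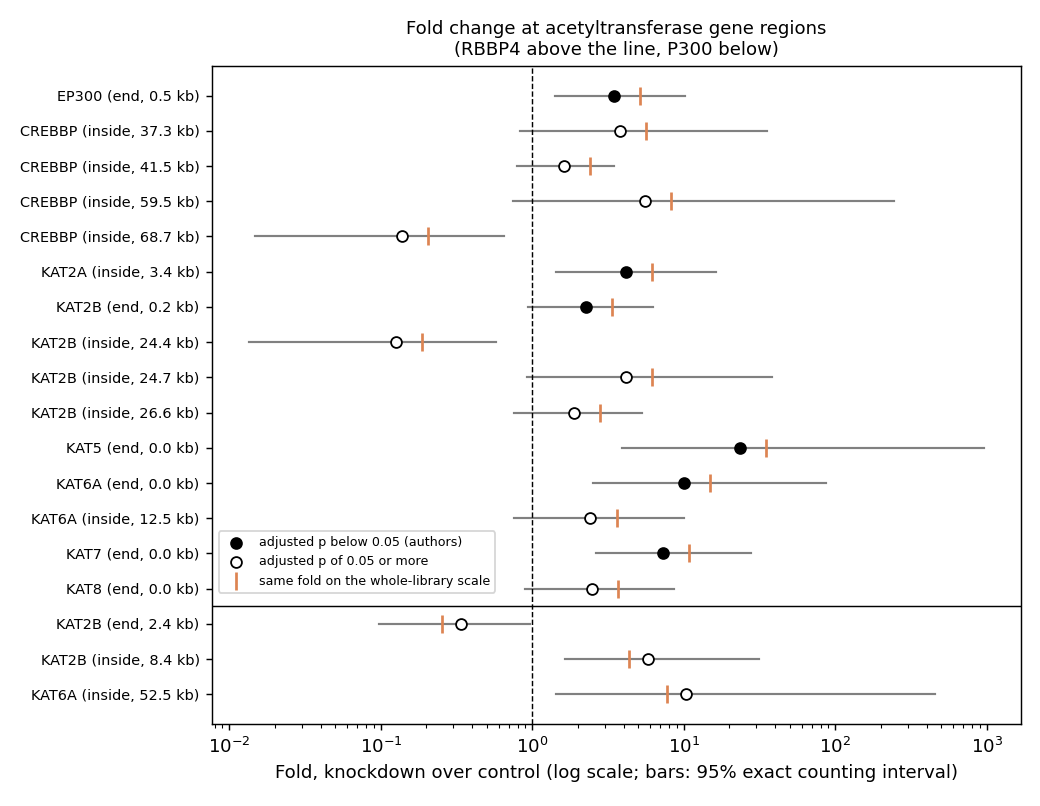
Fold of knockdown over control (log axis) for each region, with bars for the 95% exact counting interval, filled points for called regions, and ticks for the same fold on the whole-library scale. Of the 13 higher RBBP4 regions 5 have a bar wholly above 1, among them KAT5 at 23.5-fold, and 2 RBBP4 regions lie below 1.

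Most called member regions lay near a gene end. Of the 15 RBBP4 regions, 6 lay within 3000 bp of a gene end (EP300, KAT2B, KAT5, KAT6A, KAT7 and KAT8), all higher, and 5 of these were called. Of the 9 regions farther inside, 1 was called and 2 were lower. Of all listed RBBP4 regions 68.8% were higher, of which 30.4% lay within 3000 bp of a gene end. Within that distance of a gene end, 7344 listed regions were higher and 526 lower. A higher direction there was therefore not particular to the members. Called ones made up 76.5% of the higher regions near a gene end and 70.3% of all higher regions. Over all listed higher regions, position and calls were therefore only weakly related. The difference between member regions near an end and farther inside was not tested. By gene, 5 of 9 members had a called higher region within 3000 bp of an end, against 29.7% of all protein-coding genes and 32.1% of those in the members' length range. A promoter window was overlapped by a called higher region at 3 of the 7 members with a window (KAT2B, KAT5 and KAT7), against 24.1% of 15843 protein-coding genes with one.

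Called regions were also the deeper ones. They held 28 to 46 reads over both libraries, with 23 to 42 after knockdown and 1 to 7 in the control. Those without a call held 9 to 40, with a median of 14 against 33. The median log2 ratio of the 13 higher member regions was 1.92, and that of all listed higher RBBP4 regions was 1.92 too. By size of ratio the members were therefore not set apart from other listed higher regions.

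**Figure D3:**
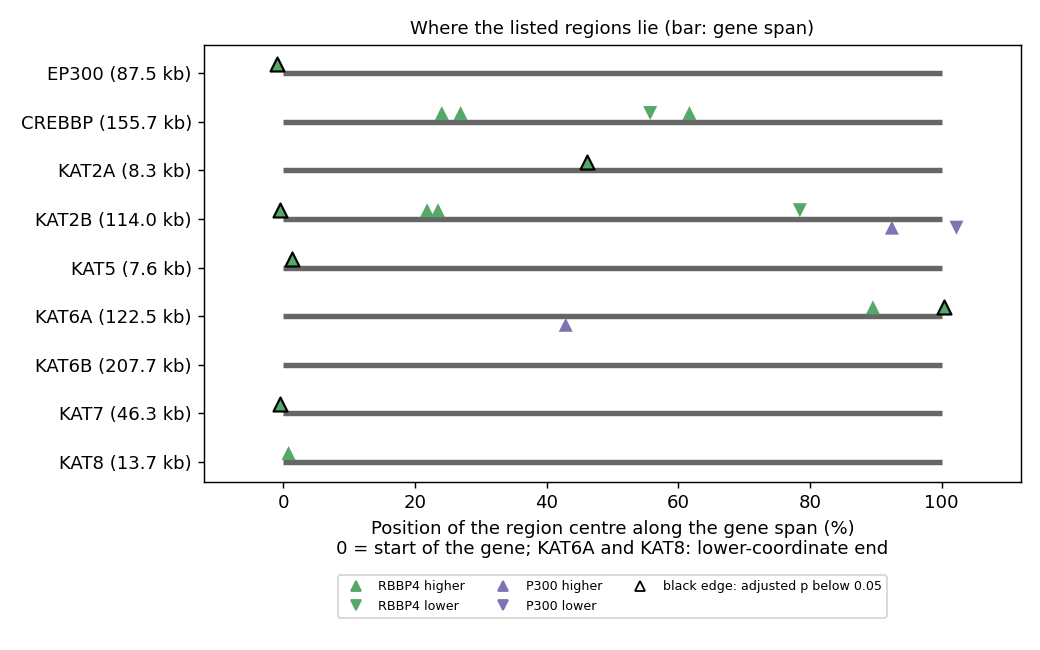
Position of each region's centre along the gene span (x axis, per cent of the span from the start, or from the lower-coordinate end for KAT6A and KAT8), with triangles pointing up for higher and down for lower, and black edges for an adjusted p below 0.05. Called RBBP4 regions sit at a gene end in 5 genes and inside KAT2A, CREBBP has 4 regions away from its ends, and KAT6B has none.

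The surroundings of the genes differed. Within 1 Mb of each gene, leaving out the gene's own regions, higher RBBP4 regions made up between 60.7% (17 of 28, KAT6A) and 95.8% (46 of 48, CREBBP) of the listed ones at 8 of the genes. KAT2B was the exception, with 4 of 19 (21.1%). Control read density there had a median of 27.03 reads per kb in the listed regions, against 10.5 per kb over all listed RBBP4 regions. The called region upstream of KAT2B thus had the opposite direction to 15 of the 19 listed regions around it. KAT6B, a MYST gene with 207689 bp and the longest of the members, had no listed region, while 42 of the 47 around it were higher.

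The limit of 3000 bp left out 4 RBBP4 regions that lay within 10000 bp of a member. One of them, 3900 bp from KAT7 and inside TAC4, was called, with 11 reads against 1 (adjusted p 0.0416, the authors' deposited table). The region nearest the limit from inside was a P300 region 2355 bp beyond KAT2B, described with the P300 values. The other regions just outside lay near KAT2A (9 reads against 1), KAT2B (3 against 12) and KAT8 (19 against 6), without a call.

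The P300 comparison asked the same of P300 occupancy. Listed P300 regions lay at KAT2B and KAT6A only, and neither EP300 nor CREBBP had one. Of 20496 P300 regions, 34.7% were higher, and 0 (0%) reached an adjusted p under 0.05 in the authors' own deposited table, where all 20496 had an unadjusted p below 0.05. None of the values below is therefore a call. A listed higher P300 region was found at 2 of 9 members and at 11.5% of protein-coding genes, and a listed lower one at 1 of 9 members and at 17.7% of these genes. The P300 totals inferred from the scaling were 946392 reads after knockdown and 1092789 in the control.

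Within KAT2B, 8450 bp from its far end, a region on chromosome 3 from 20145668 to 20145954 counted 15 reads after knockdown and 3 in the control, a ratio of 5.77 (1.63 to 31.1). The authors' deposited table gives it an adjusted p of 0.260. Beyond that end, in the flank from 20156759 to 20157219, a region counted 5 reads after knockdown and 17 in the control, 2.94 times the density in the control (1.04 to 10.2). The P300 regions around the end of KAT2B thus had opposite directions.

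At KAT6A a P300 region inside the gene, on chromosome 8 from 41981945 to 41982123, counted 9 reads after knockdown and 1 in the control, a ratio of 10.4 (1.44 to 456). The authors' deposited table gives it an adjusted p of 0.293. No P300 region overlapped an RBBP4 region of the same gene, and the smallest gap between them was 15620 bp at KAT2B and 56834 bp at KAT6A. On the whole-library scale the P300 ratios are divided by 1.34, and the direction of each of the 3 is kept.

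Complex partners of these enzymes, other acetyltransferases, deacetylases and acetyl-lysine readers gave the wider pathway. They were taken as 7 lists with 92 genes, and 64 (69.6%) had a called higher RBBP4 region, against 38.3% of all protein-coding genes and 6 of 9 members. A called lower region lay at 11 genes (12.0%, against 5.6% of protein-coding genes), and 9 of these 11 had a higher one too. Unlike the members, the lists were not set beside genes of like length. Some list genes held many listed RBBP4 regions, such as HDAC9 with 42 and MLLT3 with 17. The lists were chosen with earlier results of these data known, and no test of a list was made.

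By complex, the counts of genes with a called higher region were 13 of 20 for SAGA and ATAC, the home of KAT2A and KAT2B, and 10 of 16 for NuA4/TIP60, the home of KAT5. They were 6 of 9 for the MOZ/MORF/HBO1 partners of KAT6A, KAT6B and KAT7, and 7 of 10 for the MSL and NSL partners of KAT8. Other acetyltransferases had 7 of 9, deacetylases 14 of 18 and acetyl-lysine readers 7 of 10. Called higher regions were thus found at genes of the acetyltransferase lists and at genes of the deacetylase list.

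Examples at gene ends were DR1, an ATAC subunit, with 29 reads in the knockdown library and 0 in the control. That is 6.67-fold higher when 3 reads stand for 0, with a lower interval limit of 5.08. BRPF1, the scaffold of the KAT6A complex, had 30 against 0, which is 6.90-fold higher on the same floor (lower limit 5.27). A second BRPF1 region at a gene end had 17 against 1 (11.7-fold, 1.84 to 490). Whether these example regions also overlapped genes outside the lists was not examined. EPC1, a NuA4/TIP60 scaffold, had 29 against 3 (6.67-fold, 2.07 to 34.2), and MCRS1, an NSL subunit, had 37 against 4 (6.38-fold, 2.29 to 24.6). SIRT6, a nuclear deacetylase, had 26 against 3 (5.98-fold, 1.83 to 30.9), and MLLT3, which reads acetyl-lysine through its YEATS domain, 80 against 7 (7.88-fold, 3.65 to 20.2). OGT and TAF1 were counted through the same region on chromosome X, with 19 reads against 2, so they are not separate measurements. MLLT3 held both directions, since a called lower region inside the gene counted 2 reads against 21. At an end of ING3, a NuA4/TIP60 subunit, a called lower region counted 3 reads after knockdown and 16 in the control, 7.73-fold lower density (2.21 to 41.4). A second listed region at an end of ING3 was higher and not called, and the authors' deposited table gives it a log2 fold change of 1.79 (adjusted p 0.126).

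**Figure D4:**
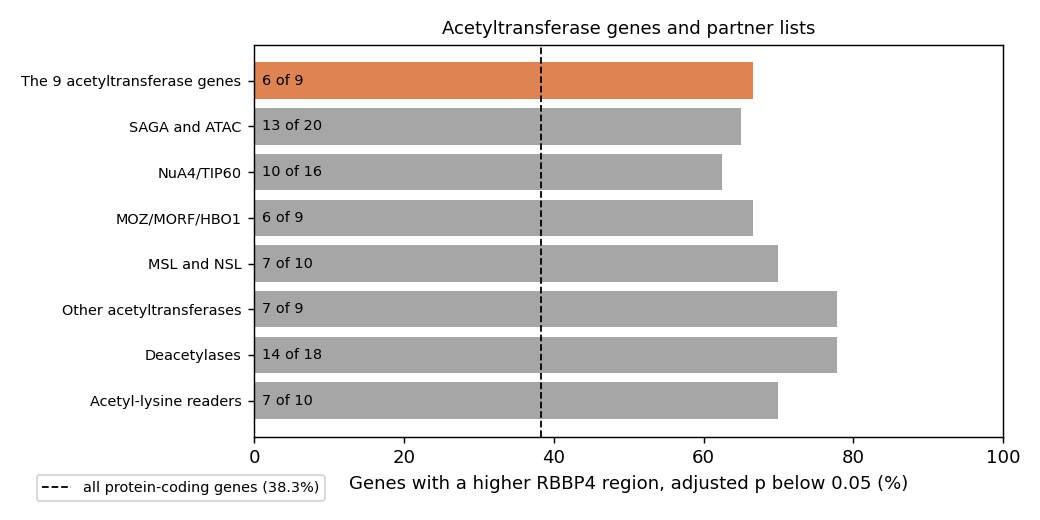
Share of genes (x axis, per cent) with a called higher RBBP4 region, for the 9 acetyltransferase genes and 7 lists of partner and related genes. Counts stand in the bars, and a dashed line marks the 38.3% of all protein-coding genes. Every list lies above that line, from 10 of 16 (62.5%) for NuA4/TIP60 to 77.8% for deacetylases (14 of 18) and other acetyltransferases (7 of 9).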

How the data were processed

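For each antibody the authors deposited a single table of regions, on GRCh38 per the submitters' processing notes. These name Bowtie2 2.4.5 and Trim Galore 0.6.7, then DiffBind 3.4.11 and MACS2 2.2.7.1, and also ChIPseeker 1.28.3 and FastQC, without their roles. The RPKM of each library, the log2 fold change and mean log2 CPM, and the p-value and adjusted p-value are the authors' deposited values, per the file headers. Columns were assigned to arms by name alone (for RBBP4 only by initials), and a swap would turn every direction. No other sample column was used. One planned marker gene is not reported here.

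Multiplying RPKM by width returned whole numbers of reads (tolerance 0.01) in 98.3% of RBBP4 and 99.4% of P300 regions, all 18 member regions included. The authors' log2 fold change differed from the RPKM ratio by 0.58 (RBBP4) and -0.42 (P300) in log2. The shift was taken from regions with at least 20 (RBBP4) or 5 (P300) reads in each library. The tail of a beta-binomial at dispersion 0.01 gave the RBBP4 p-value, within 0.001 in log10, for 87.7% of regions, and 0.04 was tried in its place over 95329 tested regions, a number worked out from the adjusted p-values. Regions without whole numbers entered that setting with rounded values. A library at 0 reads was set to 3 reads.

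Gene spans were those of RefSeq GRCh38.p14, for 20037 protein-coding genes. Promoter windows held 250 bases before and 50 after each start, of which the first 250 were used in place of all 300 as planned. In the full windows KAT5 also held GGGCGG, and KAT5, CREBBP and EP300 also held ATGGCG. The members and lists were chosen with earlier results of these data known. All members were named, with at most 4 genes per list by smallest adjusted p at a gene end, and lower examples and genes in the other observations were added after their values were seen. Scripts were tested on simulated data. Python 3.11.15, scipy 1.17.1 and matplotlib 3.10.9 were used. The alternatives were flanks of 1000 and 10000 bp, a 50% overlap, at least 20 reads, thresholds of 0.01, and pseudocounts of 1 and 0.1 on RPKM.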

Additional observations from a re-analysis of the deposited data

How the results depend on the processing

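The RBBP4 count of 6 members with a called higher region stayed at 6 with flanks of 1000 and 10000 bp, with 50% of a region required inside, and with at least 20 reads. It was 5 at an adjusted p below 0.01 and at a dispersion of 0.04 (KAT2B was lost in both), and 5 within 3000 bp of a gene end (KAT2A was lost). At a dispersion of 0.04 the criterion was met by 29.7% of protein-coding genes, and 68.2% of all called higher regions kept their call. Keeping most calls was therefore not particular to the members. The dispersion and gene-end settings were chosen after seeing the data. The count of lower called members stayed at 0 throughout, and the 64 genes of the 7 lists ranged from 44 to 67. Shares over all genes were not worked out for the changed flanks, overlap, depth and threshold. For P300, the 2 members with a listed higher region became 0 with at least 20 reads and 0 at an unadjusted p below 0.01. The 1 member with a lower region became 0 with a flank of 1000 bp. The cause is the construction of these settings, which admit fewer regions. All 18 region ratios kept their direction, inside their counting interval, under the authors' log2 fold change and with pseudocounts of 1 and 0.1. On the whole-library scale the intervals of 13 of 13 higher RBBP4 regions lay above 1, against 5 of 13 on the scale used in the text. The 13 of 13 follows largely from the listing, which required an unadjusted p below 0.05 on that scale. It is no separate support for these differences. Depth limited every value, since no member region held more than 46 reads over both libraries. No paired analysis was possible because each arm had 1 library per antibody.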

Other observations

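Among the genes of the lists, NCOA2, a nuclear receptor coactivator with reported acetyltransferase activity, had 6 listed P300 regions. All 6 were lower after knockdown, with 1 to 5 reads against 10 to 13 in the control. Over all listed P300 regions 65.3% were lower. NCOA2 had 8 listed RBBP4 regions, 7 higher and 1 lower, where 68.8% of all listed RBBP4 regions were higher. Of its 3 RBBP4 regions at a gene end, 2 were called and higher, with 96 reads after knockdown against 13 and 101 against 23. The third was lower and not called, with 2 against 12. HDAC9, a class II deacetylase, had 7 listed P300 regions, of which 2 were higher and 5 lower, a split near that of all listed P300 regions. Of its 42 listed RBBP4 regions, 41 were higher and 1 lower. None of these P300 regions was called, and these genes were chosen after their values were seen.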
